A study of Mus musculus with 6 samples.

Results

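The AP-1 and EGR immediate early factors comprised 10 genes, namely the Fos family members Fos, Fosb, Fosl1 and Fosl2, the Jun family members Jun, Junb and Jund, the related factor Atf3, and the zinc finger factors Egr1 and Egr2. They were taken by name and are 10 of the 36163 genes named on the arrays, measured by 11 of 55681 probes. All 10 were well above background on all 6 arrays, so none was lost to the filter that left 24643 genes to test.

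N18-Fms cells, labelled N18-CFMS, were profiled on 6 single-colour Agilent arrays. They derive from a single luciferase-transfected subclone of the TRAMP prostate tumor cell line C2H. Murine c-fms, the gene of the CSF-1 receptor, was introduced into it with a retrovirus before 2 rounds of cell sorting. The model is thus a sorted population derived from 1 clone and carrying a transduced receptor. The unstimulated group (Control, labelled vehicule), the cells given 100 ng/mL recombinant murine CSF-1 for 24 h and those given it for 48 h held 2 arrays each, with RNA from 2 independent experiments, and all groups grew in medium with 10% fetal bovine serum and dihydrotestosterone. The labelled times are used here, although the methods give shorter ones. No parental cells without the receptor were analysed here. The paper found CSF-1 in medium conditioned by the N18 subclone and proposes autocrine activation of the receptor without added ligand. Control therefore means no added CSF-1.

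The 6 arrays had 58.7% to 72.0% of spots well above background and none saturated, replicates correlated at 0.994 to 0.995 over 29330 probes, and the first 24 h replicate lay on another slide than the other 5 arrays. Csf1r, the transduced receptor, was well above background on all 6 arrays. Of 10 epithelial markers 5 were well above background on all 6 arrays and Cdh1 on none, whereas 10 of 10 mesenchymal markers were. Of the prostate markers, Hoxb13, Foxa1 and Tmprss2 were well above background on no array. Of 12 macrophage markers 6 were, and Lyz2 and Spi1 on none. Arrays of whole cultures cannot tell fewer cells of a type from less RNA per cell.

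Immediate early genes are transcribed shortly after a growth factor binds its receptor, without new protein synthesis, largely through ERK and JNK signaling to factors such as ELK1 with SRF, CREB and JUN. Fos and Jun proteins pair into AP-1, which binds sites in genes for proteases, cytokines and growth factors, while EGR proteins bind GC-rich sites and are restrained by NAB corepressors. Their first wave is usually brief, and Fosl1 is a later member of the family that is often sustained in invasive carcinoma cells. CSF-1 is a macrophage growth factor, and in macrophages it is a classical inducer of Fos and of the Egr genes.

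Promoters are shown for 3 members that were higher under CSF-1 and for Jun, which did not pass the test, as the control regions that these members do or do not share. The stretches are the 250 bases before the RefSeq start (GRCm38.p6, 5′ to 3′ on the strand of the gene), at chr12:85473640-85473889 (+) for Fos, chr8:84978749-84978998 (-) for Junb, chr1:191183334-191183583 (-) for Atf3 and chr4:95052223-95052472 (-) for Jun. Capitals mark the core of the cyclic AMP response element (TGACGT or its reverse complement) and the TATA box (TATAAA, read on the strand of the gene).
Fos: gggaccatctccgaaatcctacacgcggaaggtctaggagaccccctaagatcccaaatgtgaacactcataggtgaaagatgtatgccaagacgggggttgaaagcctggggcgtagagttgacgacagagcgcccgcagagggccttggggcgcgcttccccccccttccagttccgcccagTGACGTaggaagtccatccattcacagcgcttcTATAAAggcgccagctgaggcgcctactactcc
Junb: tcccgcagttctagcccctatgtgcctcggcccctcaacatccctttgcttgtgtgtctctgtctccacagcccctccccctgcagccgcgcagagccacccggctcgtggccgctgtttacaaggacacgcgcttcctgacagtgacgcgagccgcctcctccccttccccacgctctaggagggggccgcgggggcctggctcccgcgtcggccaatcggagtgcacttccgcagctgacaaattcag
Atf3: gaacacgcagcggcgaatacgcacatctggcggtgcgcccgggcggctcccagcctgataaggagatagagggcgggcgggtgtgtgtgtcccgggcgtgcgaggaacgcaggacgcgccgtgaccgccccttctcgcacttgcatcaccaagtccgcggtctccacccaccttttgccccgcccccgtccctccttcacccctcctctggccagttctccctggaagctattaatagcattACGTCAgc
Jun: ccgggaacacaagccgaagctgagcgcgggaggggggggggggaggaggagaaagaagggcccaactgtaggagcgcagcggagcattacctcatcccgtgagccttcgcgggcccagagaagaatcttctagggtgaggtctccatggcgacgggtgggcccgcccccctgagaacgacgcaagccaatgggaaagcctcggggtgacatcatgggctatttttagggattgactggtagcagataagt

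Of the 10 members, 8 had a promoter in the RefSeq table, and Fosl1 and Egr1, which had none, were not searched. The TGACGT core was searched on both strands after the sequences had been seen. It lay 66 bases before the start of Fos, 8 bases before that of Atf3, and in some of the start sites of Egr2. Thus 3 of 8 members held it, and 6.47% of all 32851 promoter stretches of this length. A member counted if any of its start sites held a motif, while each percentage is of single stretches. These counts and percentages are therefore not like for like. TATAAA stood 33 bases before the start of Fos and in no other member (7.59% of all). The CArG box, the binding site of SRF, was found in Egr2 alone of the 8 members (1.47% of all). A GCGNGGGCG site of the EGR type was found 50 bases before the start of Fosb and 79 bases before that of Fosl2 (4.70% of all). No member held an exact TGAGTCA, the consensus AP-1 site (4.46% of all), or TTCNNNGAA, the consensus STAT site (7.02% of all), in this window. Variant sites, and sites further upstream, were not searched. None of these motifs overlapped another. The matches describe letters only.

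Expression is given as log2 signal relative to the 75th percentile of the array, so 0 is that percentile and 1 unit is a 2-fold difference. A probe's level is compared only with its own level on other arrays. Changes are log2 fold changes with their standard error (SE) from limma's moderated test over all 24643 genes, with Benjamini-Hochberg adjusted p-values, and a member rose or fell only where adjusted p was below 0.05.

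Under CSF-1, 7 of the 10 factors rose at 24 h and 6 at 48 h, and none fell. Fos, Fosb, Junb, Atf3, Egr1 and Egr2 rose at both times, and Fosl1 rose at 24 h and did not pass at 48 h. Among all genes tested, 14% passed at 24 h, 8.02% higher and 5.99% lower, and 14% passed at 48 h, 6.58% higher and 7.38% lower. With the thresholds of the study, an unadjusted p below 0.05 and a 2-fold change, 6 members at 24 h and 5 at 48 h passed, all higher, against 7.68% and 6.48% of all genes, of which 5.86% and 4.66% were higher. The median change of the 10 members was 1.38 at 24 h and 0.93 at 48 h, against 0.04 and -0.04 for all genes. With each array centred on its median instead, the median of all genes moved by -0.28 at 24 h and the share of higher genes among those called went from 57.3% to 24.4%, while 6 of the 7 members still rose, Fosl1 no longer passed and Jund fell.

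**Figure D1:**
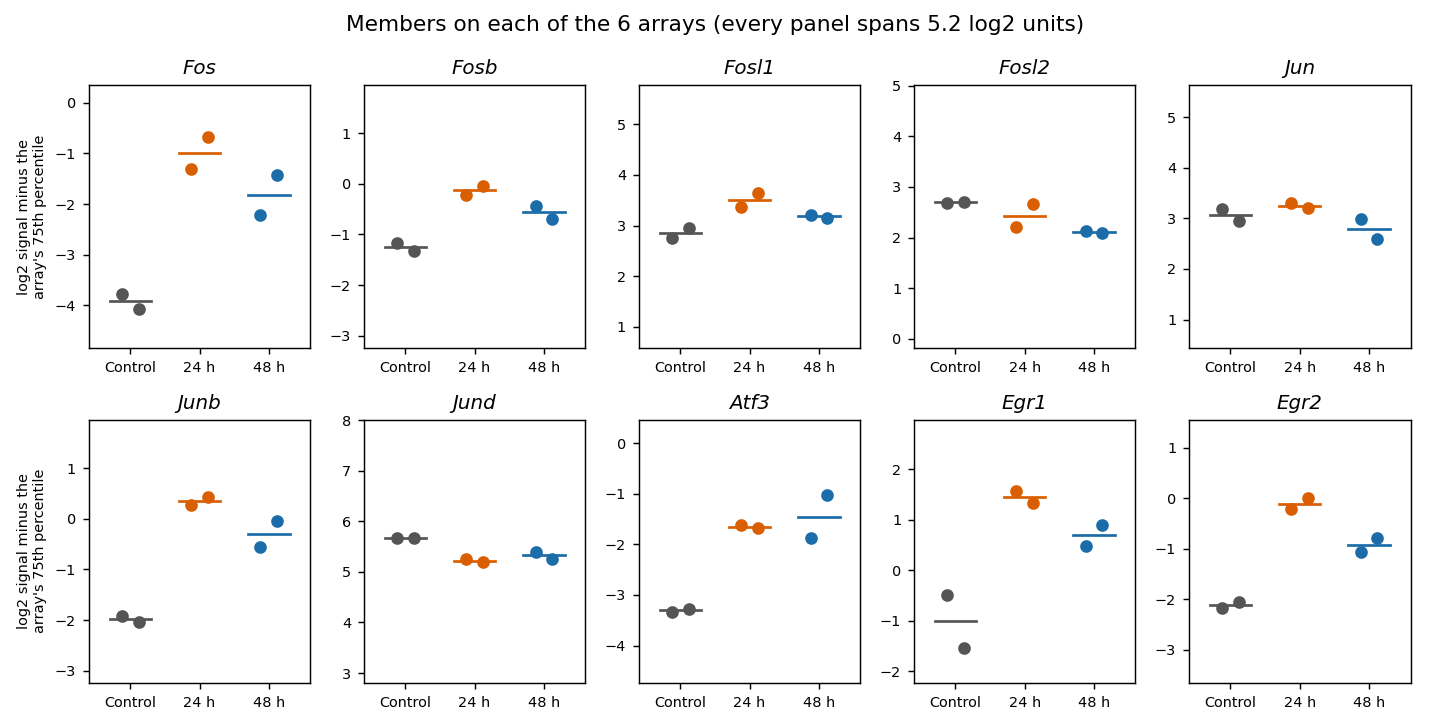
Each panel plots one factor, with the log2 signal relative to the array's 75th percentile on the vertical axis and the 3 groups on the horizontal axis; points are single arrays and lines the means of 2 arrays. Fos, Fosb, Fosl1, Junb, Atf3, Egr1 and Egr2 have every stimulated array above both Control arrays. The 48 h arrays of Jun reach into the Control range. Of all genes tested, 31.3% at 24 h and 23.8% at 48 h had both arrays above both Control arrays.

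The counts moved with single arrays. At 24 h, 4 members passed without Control replicate 1, 2 without Control replicate 2, 4 without the first 24 h replicate, 1 without the second, 5 without the first 48 h replicate and 6 without the second. Of all genes tested, 4.68%, 2.35%, 4.56%, 1.52%, 5.35% and 9.48% passed in these fits. At 48 h, in the same order, 1, 0, 4, 2, 2 and 2 members passed, and 3.53%, 2.72%, 7.72%, 3.34%, 2.41% and 4.07% of all genes. The 6 and 5 members past the thresholds of the study were as many in each of these 6 fits, and no called change turned direction in any.

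Fos, the partner of Jun proteins in the classical AP-1 dimer, had the largest change of the 10 at both times with the processing used here, though not with normexp background correction, where Egr1 and Junb changed more. Its levels were -3.77 and -4.08 in Control cells, -1.30 and -0.68 at 24 h, and -2.21 and -1.43 at 48 h. Both stimulated groups lay above the Control arrays without overlap, and both 48 h arrays lay below both 24 h arrays. Fos rose by 2.93 (SE 0.33, adjusted p = 0.00835) at 24 h, a 7.65-fold change, and by 2.10 (SE 0.33, adjusted p = 0.0197) at 48 h, a 4.29-fold change. Only 0.954% of the genes tested had an absolute change as large at 24 h, and 2.03% at 48 h.

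The Fos probe (mm9 chr12:86817900-86817959) was spotted 10 times, which gives the spread within an array. The SD over spots was 0.26 and 0.27 on the Control arrays, where the signal was dim, and 0.058 to 0.095 on the stimulated arrays, with 1 spot flagged on Control replicate 2 and 4 on the second 48 h replicate. The lowest spot was -1.47 on the 24 h arrays and -2.38 on the 48 h arrays, both above the highest Control spot, -3.49. The 2 Control levels lay above the dimmest signals called well above background on those arrays, -4.76 and -4.70. Background correction by normexp with quantile normalization gave a smaller change of 1.56 at 24 h and 0.99 at 48 h. At 24 h the call was lost without Control replicate 2 (adjusted p = 0.0696) and without the second 24 h replicate (0.0658), and at 48 h it held only without the first 24 h replicate (0.0338), with values of 0.0575 to 0.114 without each of the other 5.

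Fosb, a further Fos family subunit, was at -1.17 and -1.32 in Control cells, -0.22 and -0.03 at 24 h, and -0.43 and -0.70 at 48 h. The 3 groups did not overlap and stood in the order 24 h, 48 h, Control. Fosb rose by 1.12 (SE 0.15, adjusted p = 0.0114) at 24 h and by 0.68 (SE 0.15, adjusted p = 0.0402) at 48 h. The 24 h call was lost without Control replicate 1 (0.0543), Control replicate 2 (0.0837) or the second 24 h replicate (0.0834), and the 48 h call without any of the 6 arrays, at 0.0728 to 0.193.

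Fosl1, which encodes FRA-1, was at 2.75 and 2.94 in Control cells, 3.37 and 3.65 at 24 h, and 3.21 and 3.15 at 48 h, again without overlap of the groups. Fosl1 rose by 0.66 at 24 h (SE 0.14, adjusted p = 0.0406), a 1.59-fold change. At 48 h the difference was 0.33 (SE 0.14, adjusted p = 0.191), and its 95% interval ran from -0.03 to 0.70. The 24 h call was lost without any of the 6 arrays (adjusted p 0.0760 to 0.164), and with median centring the 24 h change was 0.38 and did not pass.

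Fosl2, which encodes FRA-2, did not rise. Its brighter probe (mm9 chr5:32460076-32460135) read 2.69 and 2.71 in Control cells, 2.21 and 2.66 at 24 h, and 2.14 and 2.09 at 48 h. The difference was -0.26 at 24 h (adjusted p = 0.362) and -0.58 at 48 h (adjusted p = 0.0834), and the latter passed with an intensity trend (0.0245) and with normexp at the 75th percentile (0.0285) or with quantile normalization (0.0420). The dimmer probe (mm9 chr5:32455088-32455147) read -1.59 and -1.76, then -1.86 and -1.68, then -2.23 and -2.31. With every probe tested on its own, this probe fell by 0.60 at 48 h (SE 0.13, adjusted p = 0.0454), while its 24 h difference was -0.10 (adjusted p = 0.667). In that fit the brighter probe differed by -0.58 at 48 h (adjusted p = 0.0924), so the 2 probes gave nearly the same size on different sides of the threshold.

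The Jun family divided. Junb, a Jun protein that often opposes Jun in growth control, was at -1.91 and -2.03 in Control cells, 0.27 and 0.42 at 24 h, and -0.55 and -0.05 at 48 h. No array of one group entered the range of another. Junb rose by 2.32 (SE 0.19, adjusted p = 0.00406) at 24 h, a 4.99-fold change, and by 1.67 (SE 0.19, adjusted p = 0.00861) at 48 h, a 3.18-fold change. The 24 h call was lost without the second 24 h replicate (0.0533), and the 48 h call without Control replicate 1 (0.0571) or 2 (0.0715).

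Jun, the c-Jun subunit activated by JNK, was at 3.19 and 2.95 in Control cells, 3.30 and 3.20 at 24 h, and 2.98 and 2.60 at 48 h. The 24 h arrays lay just above the Control arrays, and the 48 h arrays reached into their range. Its difference was 0.18 at 24 h (95% interval -0.25 to 0.62, adjusted p = 0.533), turning to -0.10 with median centring, and -0.28 at 48 h (95% interval -0.71 to 0.16, adjusted p = 0.343). These intervals leave room for changes of up to 0.62 upwards at 24 h and do not show that Jun was unaltered. The printed promoters of Jun and of Junb hold neither TGACGT nor TATAAA.

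Jund, a constitutive Jun protein, was at 5.66 and 5.67 in Control cells, 5.26 and 5.19 at 24 h, and 5.40 and 5.26 at 48 h. All 4 stimulated arrays were below both Control arrays, but the difference of -0.45 at 24 h (SE 0.11, adjusted p = 0.0565) and of -0.34 at 48 h (SE 0.11, adjusted p = 0.109) did not pass. With median centring the 24 h value was -0.73 and passed, and it also passed with normexp at the 75th percentile, with an intensity trend and over genes above background on all 6 arrays.

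Atf3, a stress-inducible factor that pairs with Jun proteins, was at -3.33 and -3.27 in Control cells, -1.62 and -1.68 at 24 h, and -1.88 and -1.03 at 48 h. The Control arrays were the lowest, and the 48 h arrays enclosed the 24 h pair. Atf3 rose by 1.65 (SE 0.28, adjusted p = 0.0220) at 24 h, a 3.13-fold change, and by 1.84 (SE 0.28, adjusted p = 0.0174) at 48 h, a 3.58-fold change, and was the sole called member with a higher mean at 48 h than at 24 h. The 24 h call was lost without either Control array (0.105 and 0.121) or either 24 h array (0.0993 and 0.110), and the 48 h call without either Control array (0.101 and 0.100) or the second 24 h replicate (0.0723). Normexp with quantile normalization gave 0.83 and 1.01.

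Egr1, an early target of ERK signaling, was the most variable member in Control cells. It read -0.49 and -1.54 there, 1.56 and 1.33 at 24 h, and 0.48 and 0.90 at 48 h. The Control replicates stood 1.05 apart, yet every stimulated array was above both. Egr1 rose by 2.46 (SE 0.36, adjusted p = 0.0159) at 24 h, a 5.49-fold change, and by 1.70 (SE 0.36, adjusted p = 0.0395) at 48 h, a 3.25-fold change. The change was 1.93 and 1.18 without Control replicate 2 and 2.98 and 2.23 without Control replicate 1. The 24 h call was lost without Control replicate 2 (0.0504), either 24 h array (0.0796 and 0.0878) or the first 48 h replicate (0.0540), and the 48 h call held only without Control replicate 1 (0.0327), with 0.0762 to 0.157 without the others.

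Egr2, a zinc finger factor also induced in macrophages, was at -2.17 and -2.04 in Control cells, -0.22 and 0.00 at 24 h, and -1.07 and -0.80 at 48 h. The groups were apart, in the order 24 h, 48 h, Control. Egr2 rose by 2.0 (SE 0.15, adjusted p = 0.00316) at 24 h, a 4.0-fold change, and by 1.18 (SE 0.15, adjusted p = 0.0113) at 48 h, a 2.26-fold change. Its 24 h call held without each of the 6 arrays in turn (adjusted p up to 0.0455), and it was the sole member of which that was true at 24 h. Its 48 h call was lost without either Control array (0.0757 and 0.0697) or either 48 h array (0.0609 and 0.0575).

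**Figure D2:**
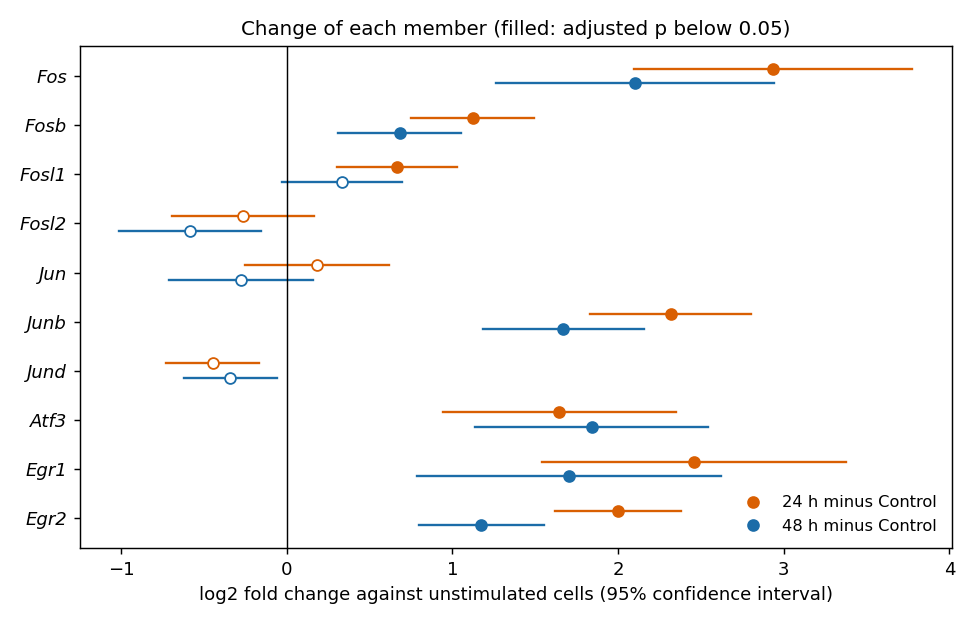
Points give the log2 fold change of each factor against unstimulated cells at 24 h (orange) and 48 h (blue), lines its 95% confidence interval, and filled points an adjusted p below 0.05. Fos, Junb and Egr1 have the largest values, 2.93, 2.32 and 2.46 at 24 h, and the intervals of Jun include 0 at both times.

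Between the stimulated groups, 8 of the 10 members were lower at 48 h than at 24 h on every array, against 33.7% of all genes, and none was higher on every array. Against Control, 8 members were higher and 2 lower on every array at 24 h (31.3% and 27.7% of all genes), and 7 higher and 2 lower at 48 h (23.8% and 35% of all genes). None of the 10 passed between 24 h and 48 h, where 0% of all genes passed, nor did any meet the unadjusted 2-fold rule, which 2.27% of all genes met. By an unadjusted p below 0.05 alone, 4 members and 3355 genes passed there. The Student t-test is named in the paper's general statistics, while its array methods name no test. After adjustment the Student test called 0 of all 24643 genes, so it says nothing of the members. The clearest member was Egr2, lower by a log2 difference of -0.82 (95% interval -1.20 to -0.44, adjusted p = 0.149). Junb differed by -0.65 (95% interval -1.13 to -0.16, adjusted p = 0.259), Fos by -0.83 (95% interval -1.67 to 0.01, adjusted p = 0.369) and Egr1 by -0.76 (95% interval -1.67 to 0.16, adjusted p = 0.440). Atf3 had a difference of 0.20 (95% interval -0.51 to 0.90, adjusted p = 0.788), and its sign turned to -0.23 without the second 48 h replicate. The order of 24 h above 48 h in these members is that of their means, and no difference between the 2 times passed the test.

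Genes whose profile was nearest that of Fosl1 were Qk, Rybp and Acvrl1, at a root mean square distance of 0.051, 0.051 and 0.056 log2 units over the 6 arrays after centring, among 13847 genes with a RefSeq symbol. The RNA-binding gene Qk changed by 0.66 and 0.34, and Rybp, a Polycomb-associated factor, by 0.66 and 0.31, at 24 h and 48 h. For Egr1 the nearest were Gm4632, Gm5544 and Gm5144, whose Control signals lay below the dimmest called well above background on those arrays, so their distances are not given.

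The other genes of the pathway come from lists written from general knowledge, with earlier results of these data known. Of 14 further AP-1 family genes and partners tested, 1 rose and 2 fell at 24 h, and 1 rose and 1 fell at 48 h. Batf2, a basic leucine zipper factor, had the largest change, from -3.24 and -3.03 in Control cells to 1.58 and 1.97 at 24 h and 2.04 and 3.13 at 48 h, a rise of 4.91 (adjusted p = 0.00314) and 5.72 (adjusted p = 0.00190). Atf5 fell by 0.69 and 0.72, and Maf fell by 1.80 at 24 h (adjusted p = 0.0232), with -1.08 at 48 h (adjusted p = 0.0800).

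Of 3 EGR or NAB genes that passed the filter, Egr3 rose by 0.98 at 24 h (adjusted p = 0.0118), from -3.79 and -3.62 to -2.71 and -2.76, and its 48 h difference was 0.26 (adjusted p = 0.246). Nab1 and Nab2, the EGR corepressors, differed by 0.34 and 0.40 at 24 h (adjusted p = 0.162 and 0.230). No gene of these 3 passed at 48 h.

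Other immediate early genes moved in both directions. Of 31 tested, 11 rose and 4 fell at 24 h, and 8 rose and 6 fell at 48 h, with 10 called at both times, 6 of them higher. Ier3, a survival-related early gene, rose by 2.96 and 2.20 (adjusted p = 0.00283 and 0.00496), its levels running from 1.45 and 1.56 to 4.26 and 4.68 and then 3.49 and 3.91. Zfp36, whose protein destabilizes AU-rich mRNAs, was not well above background in Control cells and was at least 4.87-fold higher at 24 h and at least 3.79-fold higher at 48 h. It passed the filter through the stimulated groups alone, so its p-values are not given, and it is 1 of the 11 and 8 counted as risen. These bounds set the mean of the stimulated arrays against, on each Control array, the higher of the dimmest signal called well above background and the probe's own. Plk2, a serum-inducible kinase, fell by 3.23 and 2.88 (adjusted p = 0.00204 and 0.00209), from 2.53 and 2.13 to -0.99 and -0.82 and then -0.73 and -0.38. The other 3 that fell at 24 h were Klf2, Gadd45b and Dusp1, and they fell at 48 h too. Without each array in turn, 4 to 6 of this list passed at both times, and the fewest, 4, remained without either Control array, the second 24 h replicate or the first 48 h replicate.

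Transcripts of the upstream ERK, JNK and SRF signaling moved in both directions. Of 27 tested, 3 rose and 2 fell at 24 h, and 3 rose and 3 fell at 48 h, near the shares of all genes. Crem, a cyclic AMP response factor, rose by 1.60 and 1.45, and Map2k1, the ERK kinase MEK1, by 1.09 and 1.25, whereas Srf, the serum response factor, fell by 0.62 and 0.86. The ERK-activated kinase gene Rps6ka3 rose and the JNK gene Mapk9 fell at 24 h, without passing at 48 h. At 48 h Rps6ka2 rose and the RAF gene Braf fell, without having passed at 24 h. Transcripts do not report kinase activity.

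Genes known as AP-1 targets mostly rose. Of 25 tested, 16 rose and 2 fell at 24 h, 15 rose and 1 fell at 48 h, and 14 passed at both times, 13 of them higher. Their median change was 1.12 and 0.96, or 1.03 and 0.96 with the 3 genes below background in Control cells set at their bounds, against 0.04 and -0.04 for all genes. These targets are textbook ones, and no binding was measured. They were listed with earlier results of these data known, Spp1 among them, so their share and median are descriptive only. Without each array in turn, 9 passed at both times without the first 24 h replicate, 4 without Control replicate 1, 3 without Control replicate 2, the second 24 h replicate or the second 48 h replicate, and 1 without the first 48 h replicate.

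The cytokine gene Il6 was not well above background in Control cells and was at least 17.6-fold higher at 24 h and at least 31.7-fold higher at 48 h. Of the targets that rose, Il6, Mmp1a, Mmp13 and Lif passed the filter through stimulated groups alone, Lif through the 24 h group only. Mmp13 and Lif were above background on 1 of 2 Control arrays. So of the 16 and 15 targets that rose, 4 and 3 were not measured above background on both Control arrays. Mmp10, a stromelysin, ran from -3.99 and -3.05 to 1.18 and 2.69 and then 0.30 and 1.60, a rise of 5.46 and 4.47 (adjusted p = 0.0101 and 0.0176). Mmp13, a collagenase, went from -4.74 and -3.36 to -1.12 and 0.05 and then 0.46 and 1.68, a difference of 3.52 and 5.12 that rests in part on a Control signal below background. Spp1, the osteopontin gene that the study followed up from these arrays, rose by 3.43 and 2.97. Sparc, a matricellular protein gene reported to be repressed by AP-1, fell by 1.01 and 0.89, and Ccnd1, the cyclin D1 gene, fell by 0.76 at 24 h.

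**Figure D3:**
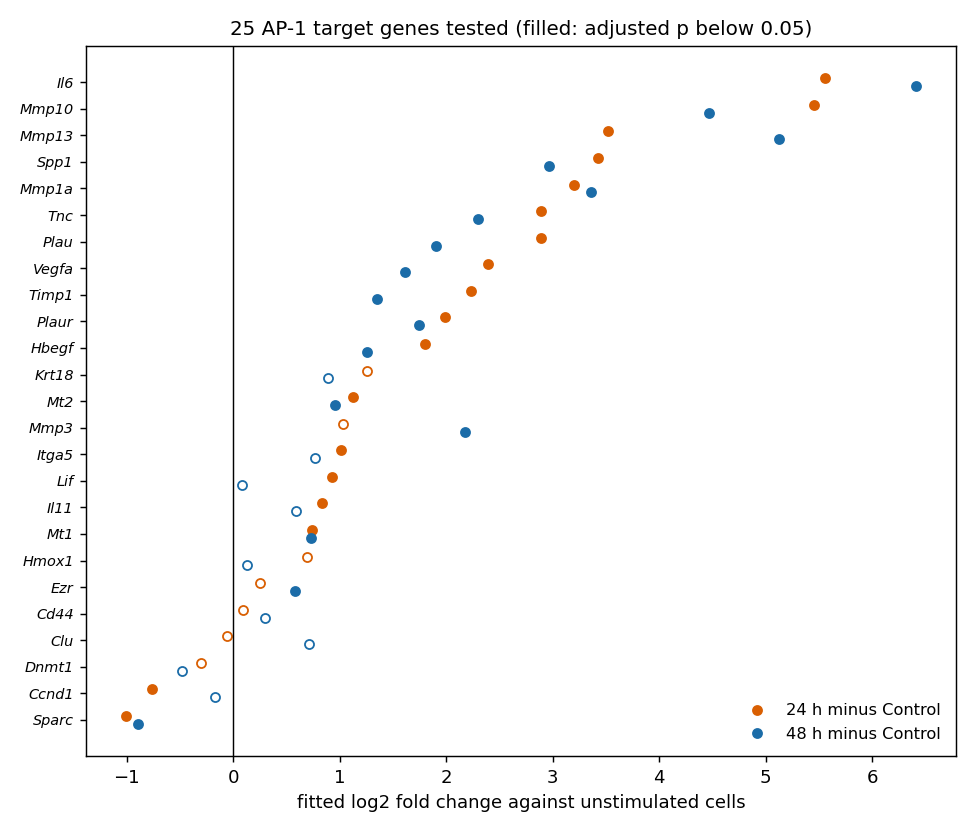
Each row is an AP-1 target gene, with its fitted log2 fold change against unstimulated cells on the horizontal axis at 24 h (orange) and 48 h (blue); filled points have an adjusted p below 0.05. Of 25 genes, 16 at 24 h and 15 at 48 h are filled and to the right of 0; for Il6 and Mmp1a, not well above background in Control cells, the fitted value depends on dim signals.

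Of 16 genes known as EGR targets that were tested, 5 rose and 2 fell at 24 h, and 3 rose and 1 fell at 48 h, where 14% of all genes passed at either time. Tgfb1 rose by 1.53 and 1.73, F3, the tissue factor gene, by 1.33 and 1.53, and Fgf2 by 1.09 and 0.79 (adjusted p = 0.0190 and 0.0425). At 24 h Pdgfa also rose by 0.72 and Ptgs2 by 2.34, and Vcl fell by 0.80, and these did not pass at 48 h. The median change of the 16 was 0.24 and 0.11. Without each array in turn, 0 to 3 passed at both times, with 0 without the second 24 h replicate, 1 without either Control array or the first 48 h replicate, and 2 without the second 48 h replicate.

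**Figure D4:**
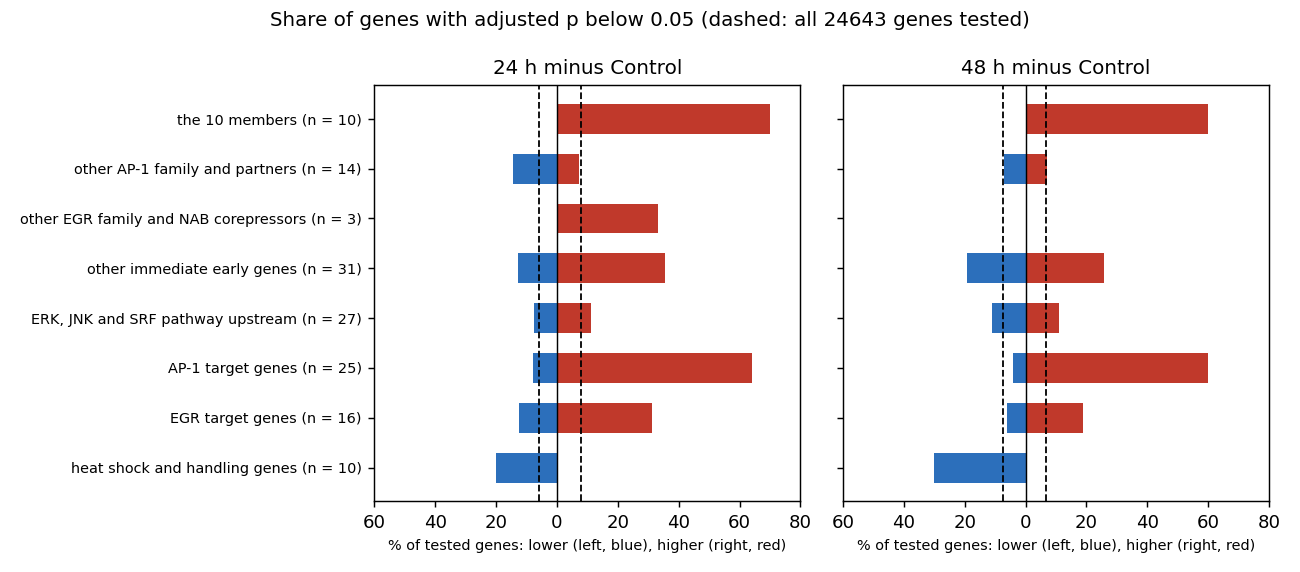
Bars give the percentage of tested genes of each list with an adjusted p below 0.05 at 24 h (left) and 48 h (right), higher to the right in red and lower to the left in blue; dashed lines mark the percentage over all 24643 genes. The 10 members (7 and 6 higher, 0 lower) and the AP-1 targets (16 and 15 of 25 higher) have the longest red bars.

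Immediate early genes also respond to the handling of cells. Of 10 heat shock genes tested none rose, while Hspd1 fell by 0.66 and 0.72 at 24 h and 48 h, Hspe1 fell by 0.58 and 0.73, and Hspa1a fell by 1.05 at 48 h. Markers of other cells moved too. Of 8 macrophage markers tested 3 rose at both times (Mrc1, Mpeg1 and Cd14) and none fell. The signals of all 12 on the arrays were also summed, in multiples of the 75th percentile. Such a sum is weighted towards bright probes. It was 40.4 to 45.1 in Control cells, 33.7 to 41.0 at 24 h and 29.3 to 37.8 at 48 h. Of 10 mesenchymal markers 5 fell at both times (Acta2, Pdgfrb, Col1a1, Col1a2 and Col3a1) and Pdgfra rose at 24 h, and their summed level was 725 to 770 in Control cells, 497 to 526 at 24 h and 480 to 483 at 48 h. Among 8 epithelial markers tested none passed at 24 h and 1 rose and 1 fell at 48 h (Krt8 and Krt7), and among 3 prostate markers Psca fell at 48 h. The part of these genes and markers in the values of the members was not tested.

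The slide offered a further split. Without the first 24 h replicate, so that all arrays shared a slide, the 24 h changes were 3.25 for Fos, 1.21 for Fosb, 0.80 for Fosl1, 2.40 for Junb, 1.61 for Atf3, 2.34 for Egr1 and 2.11 for Egr2. Fos, Fosb, Junb and Egr2 passed there with a single 24 h array left, and the other slide held 1 array only, so it gave no value of its own.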

How the data were processed

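Cy3-labelled cRNA of 6 samples was hybridized to Agilent mouse arrays. The deposited scanner files hold, per the file headers, the intensity of each spot after background subtraction and detrending by the authors with Feature Extraction 11.0.1 (probe annotation on build mm9), with flags for outliers and for signal well above background. The deposited series table holds log2 values of the same arrays, of which 99.8% of differences between arrays over 44323 probes lay within 0.05 of those computed here; its baseline is not given in the sources used here, and it served as an alternative only.

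Groups followed the labels. Flagged spots were left out, 303 probes without a value were dropped, and the log2 intensity was set against the 75th percentile of each array over 59305 non-control spots. Spots of a probe were averaged, the brightest probe stood for a gene, and 24643 genes, each well above background on all arrays of some group, were tested (limma 3.58.1 in R 4.3.3, lmFit and eBayes, 2-sided, all 6 arrays in 1 fit, 3 residual and 2.39 prior degrees of freedom), with Benjamini-Hochberg adjustment. An exact permutation test of 2 arrays against 2 cannot go below p = 0.333. The fit was tested on simulated data. All members were matched by symbol, and all 10 were found in the RefSeq table.

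Named were all 10 members and, of each other list, the 3 genes with the largest mean change among those called at both times in the same direction, plus genes needed for counts of 5 or fewer; Spp1, Sparc, Mmp1a and the genes named for such counts were named after their values were seen. Some listed genes are counted but not reported here by name. The members and lists were chosen with earlier results of these data known. Alternatives were other normalizations and background corrections, filters, probe rules, prior spreads, test forms, a replicate block and leaving out each array. Precision is limited by the number of arrays.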

Additional observations from a re-analysis of the deposited data

How the results depend on the processing

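The 7 members called at 24 h and the 6 called at 48 h kept their direction under the other normalizations and background corrections, in the deposited log2 table and without each array; the other alternatives change the test or the genes tested and leave the fold changes of these members as they were. Quantile normalization, the deposited log2 table, array weights, the robust prior and the mean of a gene's probes left 7 and 6 members called, and median centring 7 (Jund, lower, in place of Fosl1) and 5. Without a filter on dim probes 4 and 1 members passed, beside 3.66% and 2.41% of all genes. With the Student test after adjustment 0 and 0 members passed, as did 0 of all 24643 genes, so it tells nothing of them. By its unadjusted p below 0.05 and a 2-fold change, 6 and 4 members passed. Within 1 slide, the same fit as without the first 24 h array, 4 passed at 24 h. Normexp with quantile normalization left 3 members past the unadjusted 2-fold rule at 48 h. Jun at 24 h turned to -0.10 with median centring, and Atf3 between 48 h and 24 h to -0.23 without the second 48 h array (0.62 without the first); the cause was not tested. Leaving out each array in turn gave 1 to 6 members called at 24 h, 0 to 4 at 48 h, and 0 to 1 past the unadjusted 2-fold rule between 48 h and 24 h, which was 1 within 1 slide.

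Of the list genes called at both times, the AP-1 partners went from 2 to 4 with normexp at the 75th percentile or an intensity trend, and to 1 with no filter. Immediate early genes went from 10 to 16 with normexp and quantile normalization or the trend, 5 with no filter and 6 within 1 slide. Upstream genes went from 3 to 5 with normexp or the trend and 1 with no filter. AP-1 targets went from 14 to 3 with no filter and 9 within 1 slide. EGR targets went from 4 to 8 with normexp and quantile normalization, 7 with the trend, and 2 with no filter or with only the 2 groups compared. Heat shock genes went from 2 to 0 with no filter, with only the 2 groups compared and within 1 slide. With the Student test, which called no gene at all, every list had 0. Leaving out each array gave 1 to 2 AP-1 partners, 4 to 6 immediate early genes, 1 to 2 upstream genes, 1 to 9 AP-1 targets, 0 to 3 EGR targets and 0 heat shock genes. With every probe tested on its own, 6 probes of the members passed at both times, and 0 with no filter or the Student test. Fewer passed when any array was left out.

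The replicate numbers of the labels are not said to pair arrays, and deviations of arrays with the same number correlated at 0.128, 0.0941 and 0.199 between groups. With the replicate block 7 and 4 members passed, Fosb and Egr1 at 48 h being lost (adjusted p = 0.0511 and 0.0542), and 2 EGR targets passed at both times. A single array in a group is assumed to vary like the others. Signal over background limits Fos and Atf3 in Control cells.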
